A study of Mus musculus with 162 samples.

Results

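The serpin genes of the mouse were followed through a model of atopic dermatitis in cheek skin, trigeminal ganglion (TG) and spinal cord. The members were the protein-coding genes whose symbol begins with Serpin and that had at least 10 counts in total over the skin libraries. Of 68 genes with such a symbol, 61 were protein-coding and 55 passed the count limit, out of 46078 genes in the tables. The protein-coding genes below the limit were Serpina7, Serpinb9c, Serpinb9d, Serpinb9f, Serpinb9g and Serpini2. RNA was sequenced from adult male C57BL/6 mice treated once a day on the skin with 0.2 mM MC903 (calcipotriol, a vitamin D analogue) in ethanol, or with ethanol alone.

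Skin was taken from uninjected wild-type mice on day 1 (4 ethanol and 4 MC903 libraries, within hours of the first application), day 2 (2 and 3), day 5 (3 and 3) and day 8 (6 and 5). Day 8 skin also came from wild-type mice given daily injections of PBS vehicle (3 and 2) or of 250 µg of aGr1, an antibody used to deplete neutrophils (4 and 4), from TSLPR.KO mice, which lack the receptor subunit for the cytokine TSLP (2 and 3), and from BLT1.KO mice, which lack a receptor for the lipid mediator LTB4 (3 and 3). TSLPR.KO skin was also taken on day 12 (3 and 4). TG libraries, from the ganglion on the treated side, covered the wild-type days 1 (4 and 4), 2 (2 and 3), 5 (3 and 3) and 8 (5 and 5), PBS (3 and 4) and aGr1 (4 and 4) on day 8, and TSLPR.KO on days 8 (2 and 2) and 12 (4 and 4). Spinal cord was taken on day 8 from wild-type mice treated on the back, without injection (5 and 4), with PBS (2 and 2) or with aGr1 (6 and 8). The labels do not say that the libraries of a group came from separate mice, so p-values measure the spread between libraries, which may be technical.

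Serpins are a family of proteins, most of which inhibit serine or cysteine proteases by a suicide mechanism: a protease cuts an exposed reactive centre loop, and the serpin then changes shape and traps it. Extracellular clade a and c to i serpins control blood clotting, fibrinolysis, complement and the proteases of leukocytes, whereas clade b serpins lack a classical secretion signal and act largely inside cells, many of them in keratinocytes of the epidermis. Some family members, such as the collagen chaperone Serpinh1, do not inhibit proteases. In the mouse, clades a3 and b have expanded into clusters of neighbouring copies whose reactive loops differ.

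By position and clade the members fell into 10 genes of the Serpina3 cluster on chromosome 12, 6 of the Serpina1 cluster beside it, 7 other clade a genes, 11 clade b genes on chromosome 1, 11 clade b genes on chromosome 13 and 10 genes of clades c to i. The reactive loop was located in the GENCODE M21 coding sequence (mm10) by the conserved residues that flank it. It is shown for clade a genes and the Serpinb3 genes, whose levels moved far in skin, because the loop is the stretch by which close copies differ in the protease they meet. In each line the capitals mark the loop codons. The lower case letters before them are the first codons of the conserved hinge, and those after them the conserved closing codons. The remaining hinge codons open the capitals and are counted as loop here. All lie in the last coding exon: Serpina9 at chr12:103997063-103997161 on the minus strand (exon 5 of 5), Serpina3b at chr12:104138659-104138757, Serpina3f at chr12:104220239-104220340 (exon 6 of 6), Serpina3j at chr12:104319680-104319778 (exon 4 of 4) and Serpina3n at chr12:104413442-104413540 on the plus strand, Serpinb3a at chr1:107046079-107046174, Serpinb3d at chr1:107078256-107078351, Serpinb3b at chr1:107154432-107154527 and Serpinb3c at chr1:107271692-107271784 on the minus strand.
Serpina9: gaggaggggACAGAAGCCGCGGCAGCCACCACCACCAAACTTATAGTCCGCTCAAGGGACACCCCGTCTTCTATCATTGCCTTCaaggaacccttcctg
Serpina3b: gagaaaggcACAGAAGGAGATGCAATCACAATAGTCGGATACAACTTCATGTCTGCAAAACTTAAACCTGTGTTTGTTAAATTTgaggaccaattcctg
Serpina3j: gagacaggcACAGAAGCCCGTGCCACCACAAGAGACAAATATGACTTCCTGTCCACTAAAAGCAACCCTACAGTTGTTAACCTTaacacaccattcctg
Serpina3f: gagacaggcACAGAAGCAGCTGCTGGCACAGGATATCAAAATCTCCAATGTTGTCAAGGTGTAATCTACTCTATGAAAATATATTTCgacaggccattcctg
Serpina3n: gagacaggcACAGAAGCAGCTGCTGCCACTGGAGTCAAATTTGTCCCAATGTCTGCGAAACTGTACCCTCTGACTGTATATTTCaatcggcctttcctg
Serpinb3a: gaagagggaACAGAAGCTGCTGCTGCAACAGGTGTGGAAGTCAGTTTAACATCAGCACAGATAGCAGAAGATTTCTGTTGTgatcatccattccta
Serpinb3b: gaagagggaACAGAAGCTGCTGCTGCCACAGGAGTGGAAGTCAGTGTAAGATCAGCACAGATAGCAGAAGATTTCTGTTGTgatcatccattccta
Serpinb3c: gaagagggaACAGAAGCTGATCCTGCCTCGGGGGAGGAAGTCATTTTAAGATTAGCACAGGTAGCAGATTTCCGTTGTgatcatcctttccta
Serpinb3d: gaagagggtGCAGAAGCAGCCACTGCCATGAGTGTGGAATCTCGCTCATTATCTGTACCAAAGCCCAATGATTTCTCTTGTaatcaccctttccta

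The Serpina3 copies differed more in the loop than over the whole coding sequence, which includes it. Identity was taken over the longer sequence of a pair, so that gaps count as differences. Over the 28 pairs with a located loop, the coding sequences were 73.5% to 91.8% identical and the loops 56% to 78.2%. Serpina3b and Serpina3j, both lower with MC903 in the skin results below, shared 83% of the coding sequence and 65.3% of the loop. The Serpinb3 genes were split: Serpinb3a and Serpinb3b, shown above, were 93.0% identical in coding sequence and 94.4% in the loop, whereas Serpinb3c and Serpinb3d were 86.6% and 61.1% identical.

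**Figure D1:**
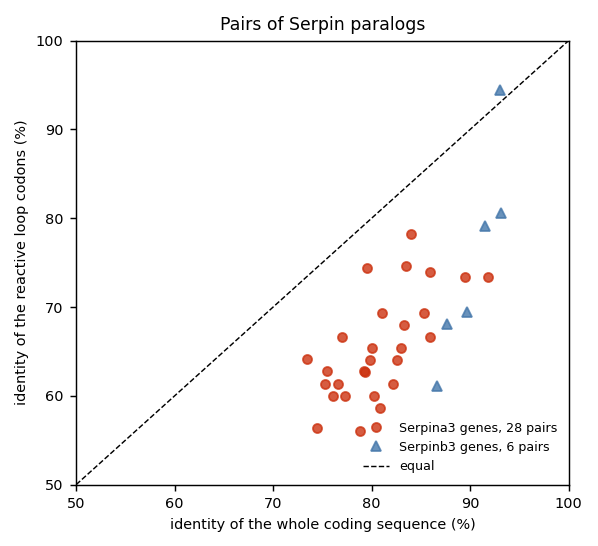
Identity of the reactive loop (y axis, percent) against identity of the whole coding sequence (x axis, percent) for the 28 pairs of Serpina3 genes and the 6 pairs of Serpinb3 genes with a located loop; the dashed line marks equal identity. The points lie below the line except for the pair Serpinb3a and Serpinb3b, at 93.0% and 94.4%.

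Close copies can share reads. Of all 50-base stretches of a member's transcripts, 16 members shared none with another gene, 22 shared under 1% and 9 shared over 25%. Serpinb7 and Serpinb12 shared none, Serpina9 1.30%, Serpina3b 2.92%, Serpina3j 3.13%, Serpina3n 6.90%, and Serpina3g, Serpina3i and Serpina3m between 15.5% and 19.1%. The Serpinb3 genes shared 12.2% to 15%, and Serpina11 shared 35.7% with the overlapping gene Gm28577. Serpinb6a, the highest serpin of TG per length, shared 25.1%, and 29.3% of its exon bases lay under Nqo2 on the opposite strand, whose reads cannot be told apart without a strand setting, and none is given in the sources used here. Serpina1a to Serpina1e and Serpina11 are therefore uncertain as single genes, and the Serpinb3 and the last-named Serpina3 genes in part.

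The 162 libraries of the series, of which 18 from wild-type day 12 mice were not used here, held 15931871 to 67342879 counts on genes (median 28888809.5), and a gene with 3 or fewer counts in a library is treated as not detectable there. In TSLPR.KO skin the targeted gene Crlf2 had 2 to 8 counts per library on day 8 and 18 to 60 on day 12, against at least 2.14 CPM (counts scaled for library size) in other skin. The TG libraries labelled TSLPR.KO had 0 to 7 Crlf2 counts on day 8, but their day 12 levels of 0.896 to 2.03 CPM overlapped the 1.19 to 7.59 CPM of the other wild-type libraries, while 1 wild-type day 8 ethanol TG library had 4 Crlf2 counts, against its label. Ltb4r1 was present in the libraries labelled BLT1.KO, at 2.32 to 3.64 CPM with ethanol and 9.66 to 15.4 CPM with MC903, against 6.66 to 9.83 and 31.4 to 79.9 CPM in uninjected wild-type day 8 skin. Those levels overlapped the 2.27 to 7.86 and 11.3 to 19.7 CPM of TSLPR.KO day 12 skin. With ethanol they also overlapped the 3.51 to 6.04 CPM of aGr1 skin, whereas PBS and TSLPR.KO day 8 skin lay above them. Ltb4r1 therefore did not set these libraries apart from all other skin. Defining markers of each tissue were detected. In skin, MC903 day 2 replicate 3 stood apart, with a sensory neuron marker sum of 1419 CPM and 53.5 CPM of the neuronal serpin Serpini1, against 0.705 to 2.94 CPM of Serpini1 in the other skin libraries.

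The 3 tissues held different sets of serpins under ethanol. Levels of different genes are compared per length, as median CPM per kb of transcript over the ethanol libraries. All used ethanol libraries of a tissue were pooled, 30 in skin, 27 in TG and 13 in spinal cord. In skin and TG they came from several days, injections and genotypes, and in spinal cord from several injections. In skin 28 of the 55 members exceeded 1 CPM per kb, in TG 15 and in spinal cord 12, and the median was 0 for 4, 17 and 19 members. The highest levels in skin were those of Serpinb6d at 161.2 CPM per kb, Serpinb5 (maspin) at 149, Serping1 (C1 inhibitor, the brake on the classical complement pathway) at 114.9, Serpinh1 at 81.9 and Serpinf1 (PEDF, an inhibitor of vessel growth) at 62.1. Next in skin came Serpinb6a at 45.5, Serpinb2 (PAI-2) at 39.4, Serpinb7 (megsin, whose loss causes a keratoderma) at 35.7 and Serpina3b and Serpina3n at 33 and 32.9 CPM per kb. The ranges of neighbours in that order overlapped, for example 62.7 to 1081 for Serpinb6d and 53.8 to 220.2 for Serpinb5. In TG the order began with Serpinb6a at 65.2, Serpina3n at 46.8, Serping1 at 41.2 and Serpinf1 at 32.1 CPM per kb, and in spinal cord with Serpinb1b at 26.6, Serpine2 (protease nexin 1) at 23.7, Serpina3n at 23.1 and Serpinb1a at 18. Serpina3n, a secreted inhibitor related to antichymotrypsin, was the only gene among the 3 highest of both nervous tissues.

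By day 8 MC903 had moved 24 of the 51 members tested in uninjected wild-type skin, 17 higher and 7 lower (edgeR quasi-likelihood test, Benjamini-Hochberg adjusted p under 0.05), where 23.4% of all genes tested were called, 12.2% higher and 11.2% lower. Serpina9 and Serpina3n of clade a and the Serpinb3 genes, Serpinb12 and Serpinb1a of clade b were higher, whereas Serpina3b, Serpina3j, Serpinb7, Serpinb6d and Serpinb13 were lower. Over 9 skin comparisons, 40 members were called at least once, 12 of them only higher, 19 only lower and 9 in both directions. Another 13 were called in none and 2, Serpina6 and Serpinb9e, had too few counts to be tested. The share of all genes called at least once over the 9 comparisons was not computed. Single comparisons called 0% to 32.6% of all genes. The fits at day 8 included a term for the 2 cohorts that the titles distinguish, A (3 ethanol and 3 MC903 libraries) and B (3 and 2).

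**Figure D2:**
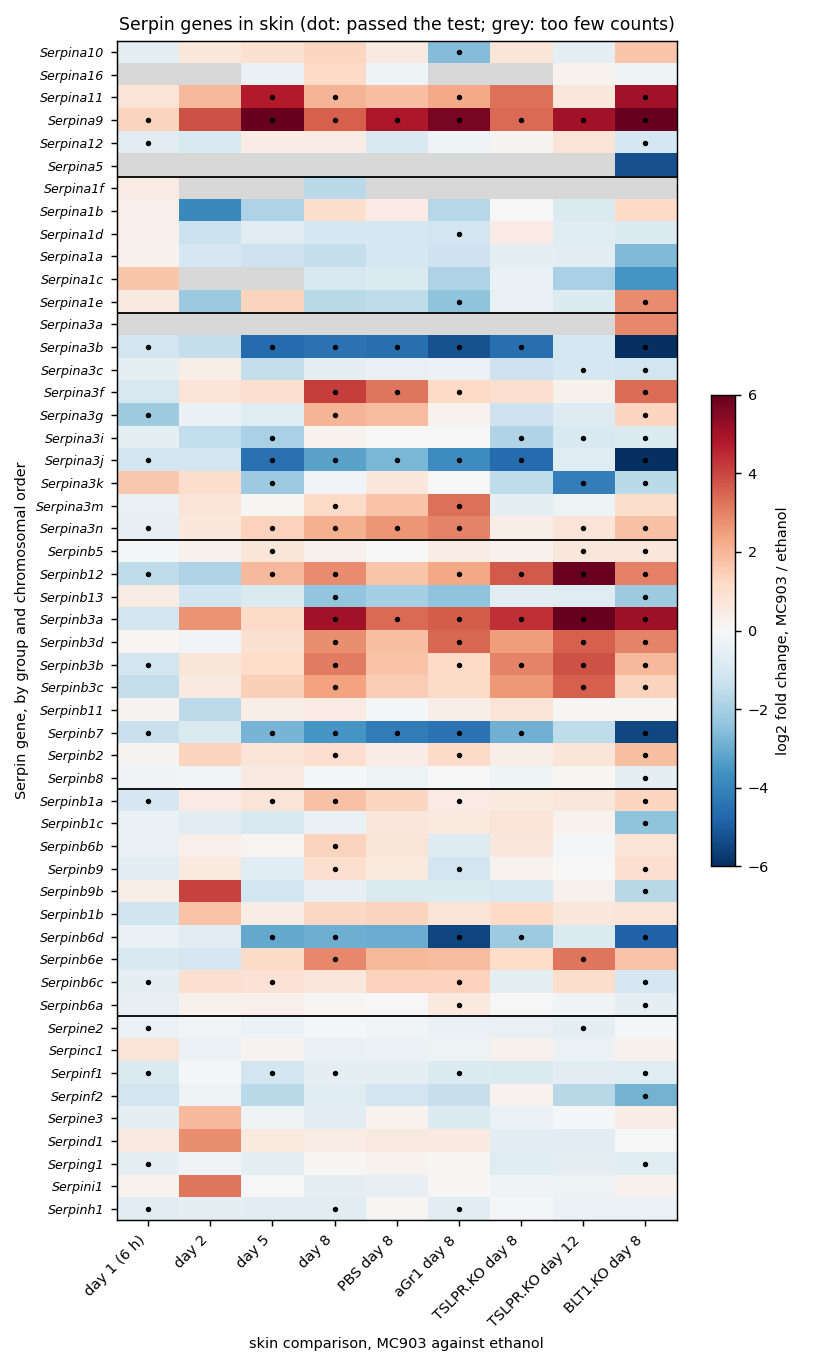
Log2 fold change of the serpins reported (rows, grouped by cluster) in the 9 comparisons of MC903 with ethanol in skin (columns); a dot marks an adjusted p under 0.05 and grey a gene with too few counts. The colour scale stops at 6 in either direction, so Serpina9 at 6.29 and Serpina3b at -6.83 in the libraries labelled BLT1.KO take the end colours.

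Serpina9 (centerin), known from germinal-centre B cells, was the member with the smallest p on day 8. The lowest, median and highest ethanol values were 4.86, 6.89 and 9.28 CPM. The MC903 libraries held 90.4, 77.9 and 78.7 CPM in cohort A and 76.1 and 96.5 CPM in cohort B. Every MC903 library was thus far above every ethanol library in both cohorts. The means were 83.9 ± 9.0 (SD, n = 5) and 7.11 ± 1.82 CPM (n = 6), a log2 fold change of 3.58 ± 0.18 (SE, adjusted p = 3.43e-08), and the fold change was 3.58 within cohort A and 3.56 within cohort B.

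Within the Serpina3 cluster 4 of 9 genes tested were higher and 2 lower on day 8, with a median log2 fold change of 0.19 against -0.033 over all genes. Serpina3n ranged from 40.5 to 106 CPM with ethanol (median 58.4) and stood at 382, 446 and 324 CPM in the cohort A and 117.6 and 230 CPM in the cohort B MC903 libraries. The groups did not overlap, although the lowest MC903 library was close to the highest ethanol one (log2 fold change 2.12 ± 0.22, adjusted p = 1.98e-05). Serpina3f had 0.154 to 0.900 CPM with ethanol (median 0.396) and 11.5, 18.9, 3.19, 2.95 and 6.79 CPM with MC903 (4.13 ± 0.46, adjusted p = 3.68e-05). Serpina3g, an intracellular inhibitor of cathepsins also called Spi2A, had 4.32 to 9.49 CPM (median 8.12) and 52.1, 67.6, 22, 11.7 and 21.7 CPM (2.03 ± 0.38, adjusted p = 0.00225). These genes were highest in the first 2 cohort A libraries. Serpina3m was also called (1.13 ± 0.38, adjusted p = 0.0482), with ranges that overlapped.

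Their neighbours moved the other way. Serpina3b had 49.1, 83.7 and 141 CPM as the lowest, median and highest ethanol values, and 0.702, 3.11 and 1.97 CPM (cohort A) and 14.4 and 2.35 CPM (cohort B) with MC903 (-4.42 ± 0.60, adjusted p = 0.000213). Serpina3j had 7.93, 10.1 and 25.6 CPM with ethanol and 0.566 to 2.52 CPM with MC903 (-3.22 ± 0.37, adjusted p = 4.64e-05). In neither gene did the groups overlap, and each of these genes was called lower in 7 of the 9 skin comparisons. Serpina3c and Serpina3i, at log2 fold changes of -0.55 and 0.19, did not pass on day 8 (adjusted p = 0.106 and 0.707).

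**Figure D3:**
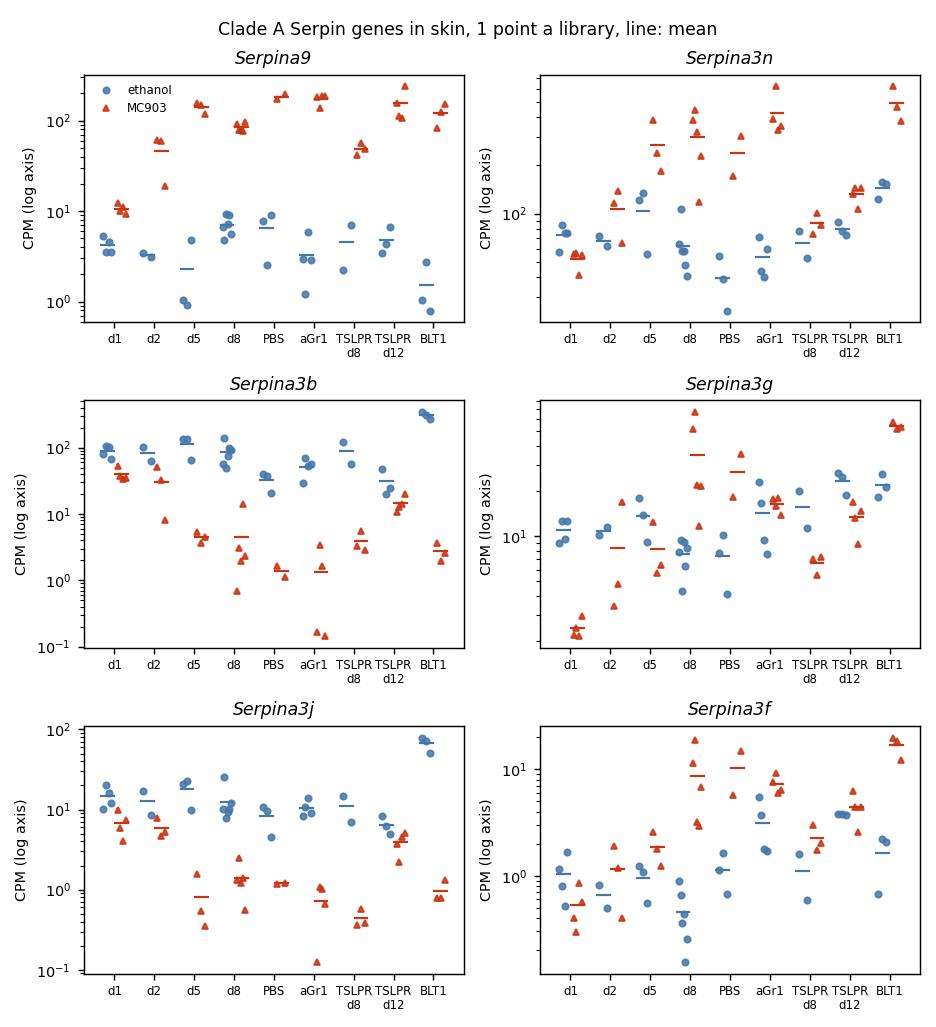
CPM on a log axis of Serpina9, Serpina3n, Serpina3b, Serpina3g, Serpina3j and Serpina3f in each skin library, ethanol beside MC903 for each day, injection and genotype; points are libraries and lines are means. Serpina9 is higher with MC903 in every condition, whereas Serpina3b and Serpina3j lie lower in most and overlap ethanol on day 12.

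On chromosome 1, 6 of 11 clade b genes were higher and 2 lower on day 8, with a median log2 fold change of 1.0. The Serpinb3 genes, counterparts of the human squamous cell carcinoma antigens that inhibit cysteine and serine proteases, rose together. Serpinb3a was near the detection limit with ethanol, at 0 to 0.301 CPM, and had 9.31, 8.2 and 2.72 CPM in cohort A and 3.08 and 2.65 CPM in cohort B with MC903 (5.03 ± 0.56, adjusted p = 4.26e-05). Serpinb3b, whose loop is nearly that of Serpinb3a, had 0.737 to 6.17 CPM (median 2.24) and 20.7, 20.1, 13.3, 18.7 and 22.2 CPM (3.13 ± 0.35, adjusted p = 3.91e-05). Neither gene overlapped between treatments. Serpinb3c reached 1.06 to 1.80 CPM from 0.0254 to 0.994 CPM (2.41 ± 0.63, adjusted p = 0.0144) and Serpinb3d 0.500 to 1.56 CPM from 0.0291 to 0.307 CPM (2.78 ± 0.55, adjusted p = 0.00295). Within cohort B alone Serpinb3c (1.39, adjusted p = 0.26) and Serpinb3d (1.87, adjusted p = 0.31) did not pass.

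Serpinb12, an epidermal clade b serpin, had 1.43 to 8.66 CPM with ethanol (median 2.25) and 39.4, 19.5, 26.6, 10.6 and 11.9 CPM with MC903 (2.82 ± 0.55, adjusted p = 0.00274), with no overlap. Serpinb2, an inhibitor of plasminogen activators, had 67.3 to 117.8 CPM (median 99.0) and 140, 221, 84.4, 182 and 296 CPM (1.0 ± 0.23, adjusted p = 0.00768), and the MC903 value of 84.4 CPM lay within the ethanol range. Within cohort A alone Serpinb2 did not pass (0.84, adjusted p = 0.139). Serpinb7 fell. Its ethanol values had a lowest, median and highest of 25.5, 48.1 and 65.6 CPM, and its MC903 values were 2.47, 1.76, 2.41, 6.86 and 6.4 CPM, well apart from them (-3.53 ± 0.22, adjusted p = 2.52e-07). Serpinb13 (hurpin) was also lower (-2.36 ± 0.50, adjusted p = 0.0047), and Serpinb5, at 0.28 ± 0.13, did not pass (adjusted p = 0.137).

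On chromosome 13, 4 of 10 clade b genes tested were higher and Serpinb6d was lower, with a median log2 fold change of 0.85. Serpinb1a, which inhibits neutrophil elastase and cathepsin G, had 7.01 to 14.9 CPM with ethanol (median 12.5) and 44.9, 58.2, 27.9, 23.9 and 35.4 CPM with MC903 (1.75 ± 0.27, adjusted p = 0.000527). Serpinb9, an inhibitor of granzyme B, had 2.18 to 3.79 CPM and 5.56, 10.2, 5.16, 4.74 and 3.93 CPM (1.03 ± 0.24, adjusted p = 0.00831). Neither gene overlapped between treatments, though the lowest MC903 value of Serpinb9 was just above the ethanol range. Serpinb6d, the gene with the highest ethanol median per length in skin, had 113.4, 320.0 and 562 CPM as its lowest, median and highest ethanol values and 6.01, 12.8 and 31.5 CPM in cohort A and 111.9 and 75.7 CPM in cohort B with MC903 (-2.95 ± 0.41, adjusted p = 0.000255). The cohort B values stood above those of cohort A, and the highest nearly reached the ethanol range.

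**Figure D4:**
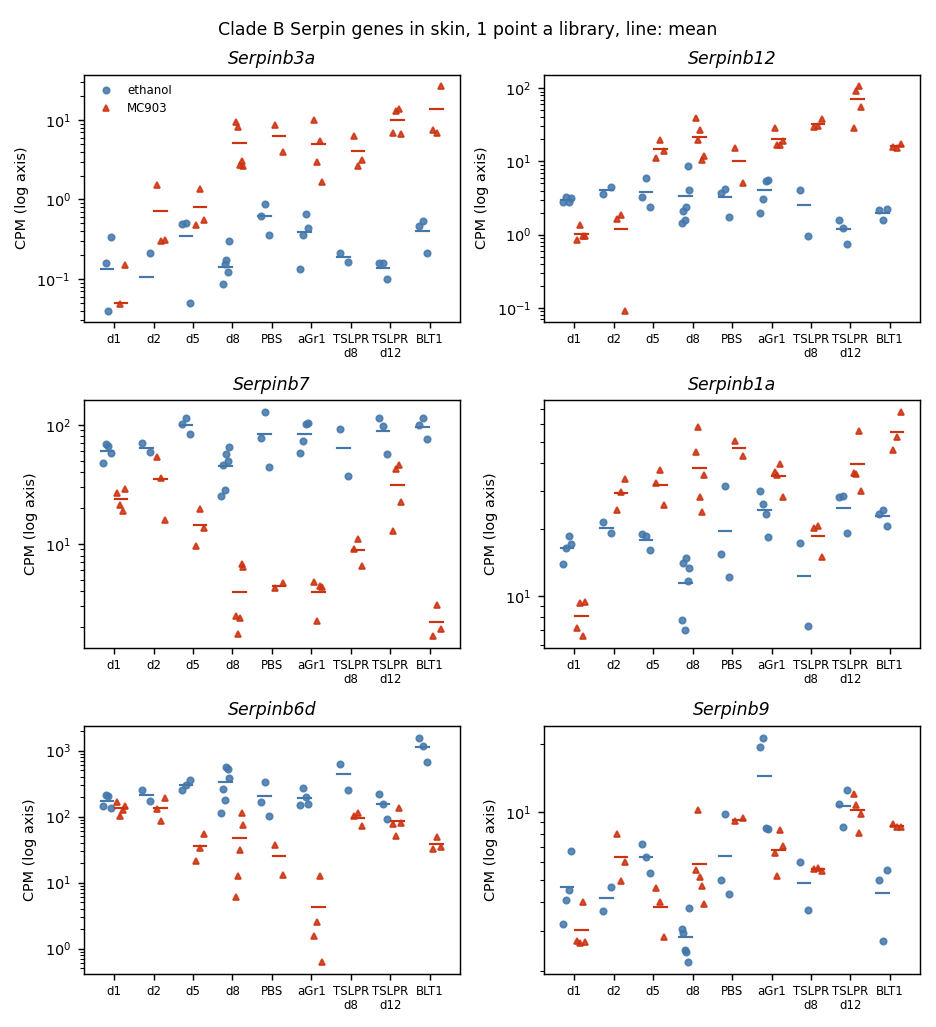
CPM on a log axis of Serpinb3a, Serpinb12, Serpinb7, Serpinb1a, Serpinb6d and Serpinb9 in each skin library, ethanol beside MC903 for each condition; points are libraries and lines are means. Serpinb7 is lower with MC903 in every condition, and Serpinb3a stays low until day 5 and is higher with MC903 in the day 8 and day 12 conditions.

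Of the 10 genes of clades c to i, 2 were lower on day 8. Serpinf1 (-0.59 ± 0.18, adjusted p = 0.0329) and Serpinh1 (-0.65 ± 0.22, adjusted p = 0.0478) were called lower with ranges that overlapped, and both calls were lost without the cohort term and within either cohort alone. Serping1, Serpine2 and Serpini1 (neuroserpin) had log2 fold changes of 0.05, -0.12 and -0.59, none past the test (adjusted p = 0.881, 0.694 and 0.193).

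Marker genes of several cell types moved in the same libraries. Summed CPM of 6 keratinocyte markers was 5601 to 7520 with ethanol and 11155 to 23761 with MC903 (3 markers called higher and 1 lower), and that of 8 neutrophil markers 7.67 to 11.7 and 33.9 to 80.7 (5 higher). For 5 hair follicle markers it was 7297 to 21558 and 599 to 8895 (4 lower), for 6 fibroblast markers 8228 to 25378 and 6928 to 13216 (2 lower), and for 6 skeletal muscle markers 3561 to 14665 and 2004 to 3526 (6 lower). The part of these shifts in the serpin levels was not tested. In tissue libraries such as these, fewer cells of a type and less RNA per cell cannot be told apart.

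On day 1, 15 of 50 members tested were called, 1 higher and 14 lower, against 13% of all genes (5.51% higher and 7.47% lower). Serpina9 alone was higher, from 5.37, 3.55, 4.52 and 3.56 CPM to 12.2, 10.1, 11.2 and 9.28 CPM, with no overlap (1.34 ± 0.16, adjusted p = 0.0014). Serpina3g, which was higher on day 8, was lower within hours of the first application, at 2.21, 2.45, 2.15 and 2.94 CPM against 9.04, 12.6, 9.52 and 12.7 CPM (-2.16 ± 0.18, adjusted p = 0.00021). The same held for Serpinb12, at 0.854, 1.37, 0.967 and 0.943 CPM against 2.82, 3.27, 2.76 and 3.18 CPM (-1.53 ± 0.20, adjusted p = 0.00209). Serpinb1a was lower too, at 7.13, 9.24, 6.55 and 9.36 CPM against 14, 16.4, 18.6 and 17.2 CPM (-1.03 ± 0.15, adjusted p = 0.00315), as was Serpina3n (-0.49 ± 0.14, adjusted p = 0.0437).

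Serpinb7, Serpina3b and Serpina3j, low on day 8, were already lower on day 1. Serpinb7 had 26.9, 21.3, 18.9 and 29 CPM against 47.7, 69.7, 67 and 58.3 CPM (-1.33 ± 0.16, adjusted p = 0.00159). Serpina3b had 52.7, 37.6, 34.3 and 35.3 CPM against 79.1, 106, 102 and 67 CPM (-1.14 ± 0.18, adjusted p = 0.00472). Both pairs of groups were apart. Serpina12 (vaspin, an adipokine, at -0.64 ± 0.11), Serpinf1 (-0.85 ± 0.16), Serping1 (-0.53 ± 0.10), Serpinh1 (-0.65 ± 0.16) and Serpine2 (-0.37 ± 0.10) were lower as well, with adjusted p of 0.00606 to 0.0397. By cluster, 4 of 9 Serpina3, 3 of 11 chromosome 1 clade b, 2 of 10 chromosome 13 clade b and 4 of 10 clade c to i genes were lower. Marker sums also stood lower, for fibroblasts at 8238 to 11765 against 12943 to 23499 CPM (5 of 6 markers called) and for macrophages at 541 to 680.1 against 811 to 1055 CPM (6 of 6), and their part was not tested. The day 1 count ranged from 9 to 22 when single libraries were left out, with 9 without MC903 replicate 2 or ethanol replicate 2 or 3.

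Day 2 gave no member of 48 past the test and 0% of all genes, with 9 members at an unadjusted p under 0.05 and 2 called by DESeq2, Serpina9 and Serpinb9b. Serpina9 had 60.7, 60.1 and 19 CPM with MC903 against 3.42 and 3.13 CPM (3.82 ± 0.62, adjusted p = 0.281). Serpinb9b had 19.3, 10.9 and 6.60 CPM against 0.691 and 0.748 CPM (4.07 ± 0.63, adjusted p = 0.252). The lowest MC903 value of each gene was that of replicate 3, the library with neuronal RNA, and both genes passed without it.

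On day 5, 14 of 49 members were called, 7 higher and 7 lower, against 14.9% of all genes. Serpina9 had 155, 147 and 119.5 CPM with MC903 against 1.04, 0.921 and 4.84 CPM (5.99 ± 0.66, adjusted p = 0.00146). Serpina3b had 5.38, 3.68 and 4.48 CPM against 137, 132.9 and 65.3 CPM (-4.62 ± 0.34, adjusted p = 0.000241), and Serpina3j 1.55, 0.540 and 0.357 CPM against 21, 22.8 and 9.99 CPM (-4.45 ± 0.57, adjusted p = 0.00268). These 3 genes, and Serpinb7 with 9.72, 19.7 and 13.7 CPM against 102, 113.5 and 83.8 CPM (-2.79 ± 0.28, adjusted p = 0.000937), were clear of the ethanol values. Serpinb6d was lower by then too, with 21.3, 33.2 and 54 CPM against 257, 297 and 359 CPM (-3.06 ± 0.35, adjusted p = 0.00167). Serpina3k, Serpina3i and Serpinf1 were also lower (-2.19 ± 0.37, -1.92 ± 0.54 and -1.12 ± 0.25).

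Serpinb12 and Serpinb1a, lower on day 1, were higher on day 5. Serpinb12 had 11.3, 19.8 and 13.7 CPM against 3.28, 5.99 and 2.35 CPM (1.94 ± 0.38, adjusted p = 0.0148), and Serpinb1a 32.5, 37.2 and 25.8 CPM against 19.1, 18.8 and 16.1 CPM (0.83 ± 0.18, adjusted p = 0.0211). Serpina3n had 382, 240.0 and 186 CPM against 122.1, 134 and 56.2 CPM (1.37 ± 0.38, adjusted p = 0.0467). In all 3 genes the treatments were separate. Serpinb5 (0.72 ± 0.19) and Serpinb6c (0.85 ± 0.23) were also higher, and Serpina11 passed with 0 to 2 ethanol counts per library, so that no fold is given. Serpinb3a was not yet apart from ethanol, with 0.478, 1.37 and 0.555 CPM against 0.487, 0.499 and 0.0499 CPM. The count of called members was 7 without ethanol replicate 1 or without MC903 replicate 2.

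Tested as a difference between days, with each day's own ethanol mice, the response differed between days 1 and 5 for 15 of 52 members (10.8% of all genes). The difference in log2 fold change was 4.67 for Serpina9, 3.48 for Serpinb12, 1.86 for Serpinb1a, 1.87 for Serpina3n and 2.20 for Serpinb3b, and it was -3.48 for Serpina3b, -3.35 for Serpina3j, -2.70 for Serpinb6d and -1.46 for Serpinb7. Between days 5 and 8 it differed for 4 of 52 (1.62% of all genes): Serpina3f by 3.20, Serpina3g by 2.77 and Serpinb9 by 1.75 upward and Serpina9 by -2.41. Serpina3g thus went from -2.16 on day 1 to 2.03 on day 8, by way of 12.4, 5.69 and 6.42 CPM with MC903 against 17.9, 13.9 and 9.19 CPM on day 5, which did not pass. These contrasts share the day 5 mice, and each of the 4 calls from day 5 to day 8 was lost in 7 to 10 of the 17 fits that left out a library.

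With PBS injections, 8 of 50 members were called on day 8, 5 higher and 3 lower, against 3.99% of all genes. Serpina9 had 173 and 194 CPM with MC903 against 7.79, 2.53 and 9.10 CPM (4.86 ± 0.53, adjusted p = 0.00698). Serpina3b (-4.52 ± 0.41, adjusted p = 0.00367), Serpinb7 (-4.17 ± 0.50, adjusted p = 0.00978) and Serpina3j (-2.73 ± 0.44, adjusted p = 0.0254) were lower. Serpinb3a (3.39 ± 0.49), Serpina3n (2.64 ± 0.39) and Serpina3f (3.23 ± 0.51) were also higher, with adjusted p of 0.0171 to 0.0237. All 8 had been called in the same direction in uninjected mice. With 2 MC903 libraries the count was sensitive to single libraries, 1 without ethanol replicate 1 and 18 without ethanol replicate 2.

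With aGr1, 24 of 49 members were called, 14 higher and 10 lower, against 32.6% of all genes. Serpina9 had 180.0, 137, 186 and 185 CPM with MC903 and 2.99, 1.22, 5.87 and 2.88 CPM with ethanol (5.72 ± 0.42, adjusted p = 3e-05). Serpinb7 (-4.41 ± 0.29, adjusted p = 1.62e-05), Serpinb6d (-5.50 ± 0.84, adjusted p = 0.00136), Serpina3b (-5.25 ± 0.80, adjusted p = 0.00134), Serpina3j (-3.84 ± 0.47, adjusted p = 0.000442), Serpina1e (an alpha-1-antitrypsin copy, -2.41 ± 0.49) and Serpinf1 (-0.81 ± 0.17) were lower. Serpina3n (2.98 ± 0.27, adjusted p = 8.38e-05), Serpina3m (3.30 ± 0.37), Serpinb6c (1.40 ± 0.15) and Serpinb12 (2.33 ± 0.34) were higher, as were Serpinb3a (3.65 ± 0.63), Serpinb2 (1.14 ± 0.30) and Serpinb1a (0.50 ± 0.16). Serpinb3d passed with 0 to 3 ethanol counts per library, so that no fold is given. The summed neutrophil markers with MC903 under aGr1, at 59.6 to 67.7 CPM (7 of 7 higher, with Ly6g at 0 in the ethanol libraries), lay within the range of uninjected MC903 skin (33.9 to 80.7 CPM). The study's flow cytometry, which counts cells and not RNA, found fewer neutrophils in day 8 MC903 cheek skin with aGr1 than in uninjected or PBS-injected mice.

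The difference between the aGr1 and the uninjected response passed for 7 of 52 members (4.56% of all genes). It was 2.15 ± 0.39 for Serpina9 (adjusted p = 0.00596), 2.18 ± 0.59 for Serpina3m, -2.09 ± 0.42 for Serpinb9 (adjusted p = 0.00918), -2.91 ± 0.63 for Serpina3f, -3.84 ± 0.90 for Serpina10 (an inhibitor of clotting factor Xa), -2.14 ± 0.54 for Serpinb6b and -1.91 ± 0.53 for Serpinb3b. Serpinb9 had 19.3, 21.3, 8.54 and 8.46 CPM in the aGr1 ethanol libraries, Serpina10 4.68, 3.15, 0.949 and 0.814 CPM and Serpinb6b 10.52, 8.85, 3.02 and 4.70 CPM. The first 2 libraries, high in all 3 genes, also had T cell marker sums of 85.8 and 69.4 CPM, against 16.4 and 11.4 CPM in the other 2, and the part of these cells was not tested. Without ethanol replicate 1 the differences for Serpina10 (-3.28, adjusted p = 0.058), Serpinb6b (-1.83, adjusted p = 0.076) and Serpina3m (2.23, adjusted p = 0.073) no longer passed, and without replicate 2 those for Serpinb6b, Serpina3m and Serpinb3b did not, which left 4 calls each time. With the PBS-injected mice as the reference, the groups matched for injection, none of the 7 passed (Serpina9 0.89, adjusted p = 0.677; Serpinb9 -1.62, adjusted p = 0.306).

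In TSLPR.KO skin on day 8, 9 of 49 members were called, 4 higher and 5 lower, against 2.45% of all genes. Serpina3b had 3.32, 5.62 and 2.86 CPM with MC903 against 123.1 and 56 CPM (-4.51 ± 0.41, adjusted p = 0.000811), and Serpina3j 0.361, 0.570 and 0.385 CPM against 14.8 and 7.07 CPM (-4.62 ± 0.42, adjusted p = 0.000866). Serpinb7 (-2.87 ± 0.38, adjusted p = 0.00501), Serpinb6d (-2.19 ± 0.38) and Serpina3i (-1.78 ± 0.34) were lower too. Serpina9 had 41.4, 56.2 and 48.7 CPM against 2.27 and 6.94 CPM (3.41 ± 0.44, adjusted p = 0.00466), Serpinb3a 6.27, 2.66 and 3.12 CPM against 0.211 and 0.164 CPM (4.37 ± 0.57, adjusted p = 0.00468) and Serpinb3b 34.5, 14.2 and 18.6 CPM against 3.75 and 1.84 CPM (2.99 ± 0.46, adjusted p = 0.0106). Serpinb12 was higher as well (3.68 ± 0.52, adjusted p = 0.00723). Leaving out single libraries gave 4 to 12 called members, with 4 without MC903 replicate 1.

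Serpina3g differed between genotypes. In TSLPR.KO skin it had 7.09, 5.51 and 7.23 CPM with MC903 against 20.1 and 11.3 CPM with ethanol, the opposite order of wild-type skin, and it was the 1 of 51 members called in the test of the difference (-3.25 ± 0.62, adjusted p = 0.0448), where 0.177% of all genes were. That call was lost in 11 of the 16 fits that left out a library, with values of -3.65 to -2.80, and against cohort B alone the difference was -2.32 (adjusted p = 0.116). T cell marker sums in TSLPR.KO skin were 20.2 to 32.4 CPM with ethanol and 9.44 to 14.6 CPM with MC903, and their part was not tested. Serpina3n, called higher in wild-type skin, had 74.3, 101 and 85.4 CPM against 77.5 and 52.7 CPM in TSLPR.KO skin (0.41 ± 0.25, adjusted p = 0.496), and the difference between genotypes was -1.68 ± 0.37 (adjusted p = 0.0868).

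On day 12, 13 of 50 members were called in TSLPR.KO skin, 9 higher and 4 lower, against 10% of all genes. Serpinb3a had 6.86, 12.8, 13.8 and 6.59 CPM with MC903 against 0.156, 0.159 and 0.10 CPM (6.16 ± 0.44, adjusted p = 0.00016) and Serpinb3b 23.1, 28.2, 39.9 and 21 CPM against 2.53, 2.13 and 1.37 CPM (3.82 ± 0.31, adjusted p = 0.000272). Serpinb12 had 28.6, 92.8, 108 and 55 CPM against 1.60, 1.22 and 0.734 CPM (5.92 ± 0.55, adjusted p = 0.000519). Each MC903 library was several times above the ethanol ones in these 3 genes. Serpina9 (5.04 ± 0.40), Serpinb3c (3.6 ± 0.51), Serpinb3d (3.61 ± 0.77), Serpinb6e (3.21 ± 0.53), Serpina3n (0.76 ± 0.17) and Serpinb5 (0.66 ± 0.16) were also higher. Serpina3k (-4.13 ± 0.44), Serpina3c (-1.03 ± 0.19), Serpine2 (-0.60 ± 0.13) and Serpina3i (-0.92 ± 0.23) were lower.

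Serpina3b and Serpinb7, called lower in 7 of the 9 skin comparisons, did not pass on day 12. Serpina3b had 10.6, 12.9, 14.4 and 20.3 CPM with MC903 against 48.3, 19.9 and 25.1 CPM, and Serpinb7 12.9, 42.4, 46.5 and 22.6 CPM against 113.5, 98.3 and 57.4 CPM. The values of Serpina3b overlapped between treatments (-1.07, adjusted p = 0.0684), and those of Serpinb7 did not (-1.50, adjusted p = 0.0506). In TSLPR.KO skin on day 8 both genes had been called lower, and a difference between the 2 days was not tested. The day 12 wild-type libraries were not used here, so day 12 was seen in this genotype only. Without MC903 replicate 1 the day 12 count was 8.

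In the libraries labelled BLT1.KO, 33 of 52 members were called, 16 higher and 17 lower, against 28.6% of all genes. Serpina3b had 3.64, 1.97 and 2.60 CPM with MC903 against 349, 313 and 268 CPM with ethanol (-6.83 ± 0.28, adjusted p = 5.49e-06), and Serpina3j 0.786, 0.795 and 1.33 CPM against 79.4, 71.6 and 51.5 CPM (-6.12 ± 0.28, adjusted p = 8.4e-06). Serpinb7 had 1.67, 3.06 and 1.93 CPM against 99.5, 113.8 and 76.9 CPM (-5.46 ± 0.27, adjusted p = 1.01e-05). The ethanol values of these 3 genes were above those of the wild-type day 8 ethanol mice, while the MC903 values lay in a similar range. Serpinb6d (-4.87 ± 0.36), Serpinb1c (-2.39 ± 0.33) and Serpina3c (-1.09 ± 0.15) were also lower, with adjusted p of 4.05e-05 to 0.00102. Serpinb12 (3.0 ± 0.21), Serpina9 (6.29 ± 0.50), Serpinb3b (1.94 ± 0.20), Serpina3g (1.31 ± 0.15), Serpina3n (1.74 ± 0.21) and Serpinb2 (1.82 ± 0.22) were higher, with adjusted p of 3.39e-05 to 0.000487. Serping1 was lower there (-0.75 ± 0.14, adjusted p = 0.00455), as it had been on day 1.

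The response differed between the libraries labelled BLT1.KO and wild-type mice for 6 of 53 members (6.95% of all genes). The difference in log2 fold change was 2.76 ± 0.44 for Serpina9 (adjusted p = 0.00109), -1.88 ± 0.34 for Serpinb7 (adjusted p = 0.0033), -2.85 ± 0.53 for Serpina3j (adjusted p = 0.00398) and -1.43 ± 0.31 for Serpina12 (adjusted p = 0.00972), and these 4 were called in every fit that left out a library. It was -1.63 ± 0.40 for Serpinb6c (adjusted p = 0.021) and 4.50 ± 1.2 for Serpina1e (adjusted p = 0.0313), whose ethanol values in these libraries rest on 3 to 5 counts. Serpinb6c had 31.3, 34.4 and 35.9 CPM with MC903 against 79.2, 70.5 and 54.4 CPM with ethanol, whereas the wild-type ethanol libraries held 11.1 to 34 CPM. Hair follicle marker sums in the BLT1.KO ethanol libraries were 5.87 to 312 CPM, against 7297 to 21558 CPM in wild-type ethanol mice, and their part was not tested.

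The gene clusters can be set side by side over the 7 skin comparisons from day 5 on, in which 14.9% (day 5), 23.4% (day 8), 3.99% (PBS), 32.6% (aGr1), 2.45% (TSLPR.KO, day 8), 10% (TSLPR.KO, day 12) and 28.6% (BLT1.KO) of all genes were called. The Serpina3 cluster had 1 gene higher and 4 lower of 9 on day 5, 4 and 2 on day 8, 2 and 2 with PBS, 3 and 2 with aGr1, 0 and 3 in TSLPR.KO on day 8, 1 and 3 on day 12 and, of 10, 3 and 5 in BLT1.KO. The 11 clade b genes on chromosome 1 had 2 higher and 1 lower on day 5, 6 and 2 on day 8, 1 and 1 with PBS, 5 and 1 with aGr1, 3 and 1 in TSLPR.KO on day 8, 6 and 0 on day 12 and 7 and 3 in BLT1.KO. Median log2 fold changes over the same 7 comparisons were -1.42, 0.19, 0.63, 0.04, -1.26, -0.77 and 0.12 for the Serpina3 cluster and 0.76, 1.0, 0.44, 1.14, 0.79, 0.73 and 1.32 for the chromosome 1 cluster. The chromosome 13 cluster had 2 higher and 1 lower of 10 on day 5, 4 and 1 on day 8, 0 and 0 with PBS, 3 and 2 with aGr1, 0 and 1 in TSLPR.KO on day 8, 1 and 0 on day 12 and 2 and 5 in BLT1.KO, with medians of 0.21, 0.85, 0.71, 0.54, 0.39, 0.23 and 0.11. The medians over all genes lay between -0.04 and 0.00 in these comparisons.

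Listed proteases and other inhibitors of the skin also moved on day 8. These lists were chosen with earlier results of these data known, so their counts are descriptive only. Of 28 proteases that serpins are known to target or that act beside them, 15 were higher and 2 lower, where 12.2% and 11.2% of all genes were. The kallikreins of the epidermis led, with Klk13 at 155 to 256 CPM with MC903 against 7.09 to 11.1 CPM (4.48 ± 0.11, adjusted p = 1.85e-10), Klk6 (3.79 ± 0.14), Klk8 (2.97 ± 0.19) and Klk7 (1.49 ± 0.15), while St14 (matriptase) and Klk5 were lower at -0.71 and -0.33. Of 11 inhibitors of other families, 5 were higher and none lower: Slpi, an inhibitor of leukocyte elastase, at 72.9 to 376 CPM against 1.40 to 2.80 CPM (6.02 ± 0.42, adjusted p = 7.42e-07), Timp1 (3.96 ± 0.40), Spink5, the kallikrein inhibitor lost in Netherton syndrome (1.31 ± 0.14), Tfpi2 (3.10 ± 0.34) and Wfdc2 (2.02 ± 0.57). On day 1 the proteases had 4 higher and 9 lower of 25, where 5.51% and 7.47% of all genes were.

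In TG the Serpina3 cluster supplied most of the calls. On day 8 in uninjected wild-type mice 3 of 42 members were called at an adjusted p under 0.1, the threshold the study used for this tissue, and all 3 were Serpina3 genes, against 0.16% of all genes. Serpina3i had 9.42 and 10.9 CPM (cohort A) and 6.58, 7.84 and 5.24 CPM (cohort B) with MC903 against 1.31, 1.84, 1.64, 0.547 and 2.08 CPM (2.40 ± 0.30, adjusted p = 0.00648). Serpina3n had 327, 301, 144, 180.0 and 164 CPM against 104, 107, 115.6, 105 and 95.8 CPM (1.0 ± 0.15, adjusted p = 0.0268), and Serpina3g 92.1, 90.6, 42, 51.6 and 45.3 CPM against 38.1, 36.4, 29.3, 26.2 and 34.1 CPM (0.89 ± 0.13, adjusted p = 0.0245). No MC903 library overlapped the ethanol range in these genes, and the 2 cohort A libraries were highest. Within cohort A alone the log2 fold changes of Serpina3i, Serpina3g and Serpina3n were 2.67, 1.29 and 1.57, and within cohort B alone 2.20, 0.62 and 0.62, where none passed. Without the cohort term Serpina3g (0.96, adjusted p = 0.451) and Serpina3n (1.08, adjusted p = 0.210) did not pass, whereas Serpina3i did (2.42, adjusted p = 0.024). Without the wild-type ethanol library that had few Crlf2 counts they were 2.21, 0.88 and 1.05 and all passed.

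The chromosome 1 and 13 clade b clusters had 0 of 7 and 0 of 9 genes called on day 8 in TG, with medians of -0.37 and 0.11 against 0.93 for the 9 Serpina3 genes. Neutrophil marker sums were 6.51 to 20.7 CPM with ethanol and 5.27 to 12.6 CPM with MC903, keratinocyte sums 5.39 to 49.9 and 4.16 to 40.4 CPM, macrophage sums 104 to 199 and 99.2 to 139 CPM, and no marker of the 3 types was called.

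On days 1 and 2 in TG, 0 of 39 members passed edgeR's test each time (0% of all genes), with 9 and 6 at an unadjusted p under 0.05 and 1 called by DESeq2 on each day. The log2 fold changes of Serpina3n, Serpina3g and Serpina3i were -0.35, -0.42 and 0.18 on day 1 and 0.20, -0.24 and 0.29 on day 2. On day 5, 0 of 39 passed (0.00823% of all genes, 5 members at an unadjusted p under 0.05, and 3 by DESeq2). Serpina3n already had 123.9, 135 and 203 CPM with MC903 against 58.6, 63.2 and 68.7 CPM (1.28 ± 0.20, adjusted p = 0.265), and Serpina3i 5.23, 5.51 and 9.78 CPM against 1.10, 1.46 and 1.59 CPM (2.30 ± 0.34, adjusted p = 0.265). The groups were apart in both genes. From the correlation of same-numbered libraries the replicate numbers were taken as pairs on that day, which the labels do not state. With the replicate as a block Serpina3g, Serpina3i and Serpina3n passed (Serpina3n 1.24, adjusted p = 0.00813).

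With PBS, 6 of 34 TG members were called, all higher, against 3.36% of all genes, and 4 of them were Serpina3 genes. Serpina3i had 12.4, 9.28, 13.6 and 9.07 CPM with MC903 against 2.21, 2.53 and 2.31 CPM (2.22 ± 0.17, adjusted p = 4.73e-05), Serpina3g 76.6, 65.8, 89.2 and 67.4 CPM against 36.7, 38.6 and 38.7 CPM (0.96 ± 0.09, adjusted p = 0.000194) and Serpina3n 223, 196, 301 and 174 CPM against 96.6, 88.1 and 94.3 CPM (1.25 ± 0.14, adjusted p = 0.000587). The increases stood clear of the spread between libraries. The other calls were Serpina3f (1.13 ± 0.23), Serpinb8 (a furin inhibitor, 0.41 ± 0.08) and Serping1 (0.30 ± 0.06). The PBS count was 12 with the replicate as a block or without MC903 replicate 4.

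With aGr1, 9 of 37 were called, 7 higher and 2 lower, against 1.88% of all genes, and 6 of the 7 higher were Serpina3 genes. Serpina3i (2.0 ± 0.16, adjusted p = 7e-05), Serpina3n (1.21 ± 0.12, adjusted p = 0.000354), Serpina3g (0.86 ± 0.13, adjusted p = 0.00526) and Serpina3c (1.38 ± 0.22, adjusted p = 0.00776) led. Serpind1 was lower, with 10.8, 2.63, 6.47 and 5.91 CPM against 25.3, 17.1, 22.9 and 25 CPM (-1.81 ± 0.28, adjusted p = 0.0066), and so was Serpinh1, with 31.4, 19.7, 33 and 23.8 CPM against 50.6, 71.1, 61.6 and 53.7 CPM (-1.13 ± 0.15, adjusted p = 0.00252). Both were below ethanol in all 4 libraries, and the fibroblast marker sum was 693 to 1089 CPM with MC903 against 1051 to 1520 CPM (4 of 6 markers lower), a shift whose part was not tested. No member of 44 differed between the aGr1 and the uninjected response (0% of all genes, 5 members at an unadjusted p under 0.05 and 0 by DESeq2), with differences of 0.22 for Serpina3n (adjusted p = 0.860) and -0.40 for Serpina3i (adjusted p = 0.844).

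In TSLPR.KO mice, 0 of 36 TG members passed on day 8 (0% of all genes, 9 members at an unadjusted p under 0.05 and 2, Serpina3g and Serpina3n, by DESeq2). Serpina3n had 226 and 219 CPM with MC903 against 108 and 105 CPM (1.04 ± 0.16, adjusted p = 0.601). MC903 replicate 1 had a keratinocyte marker sum of 167 CPM, and 13.2% of its counts were ambiguous and 19% on no gene, against 2.40% and 11.8% in replicate 2. On day 12, 4 of 41 were called (0.304% of all genes), Serpina3i with 10.1, 10.4, 10.9 and 6.82 CPM against 3.43, 3.18, 3.08 and 2.61 CPM (1.63 ± 0.16, adjusted p = 0.00161), Serpina3g with 86.5, 79.3, 85.4 and 65.9 CPM against 45.2, 40.3, 42.5 and 39.2 CPM (0.91 ± 0.09, adjusted p = 0.00161), Serpina3n with 294, 216, 244 and 181 CPM against 120.6, 104, 104 and 96.1 CPM (1.13 ± 0.13, adjusted p = 0.0035) and Serpina3f (1.01 ± 0.18, adjusted p = 0.0532). All 4 genes were higher, with no overlap between treatments. The replicate numbers were taken to pair these libraries too. With the block 8 members passed, with Serpina3m and Serpinb8 added higher and Serpind1 and Serpinh1 (-0.49, adjusted p = 0.0363) lower. The day 8 response of TSLPR.KO and wild-type TG differed for none of 43 members (0% of all genes, 9 at an unadjusted p under 0.05 and 1 by DESeq2).

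**Figure D5:**
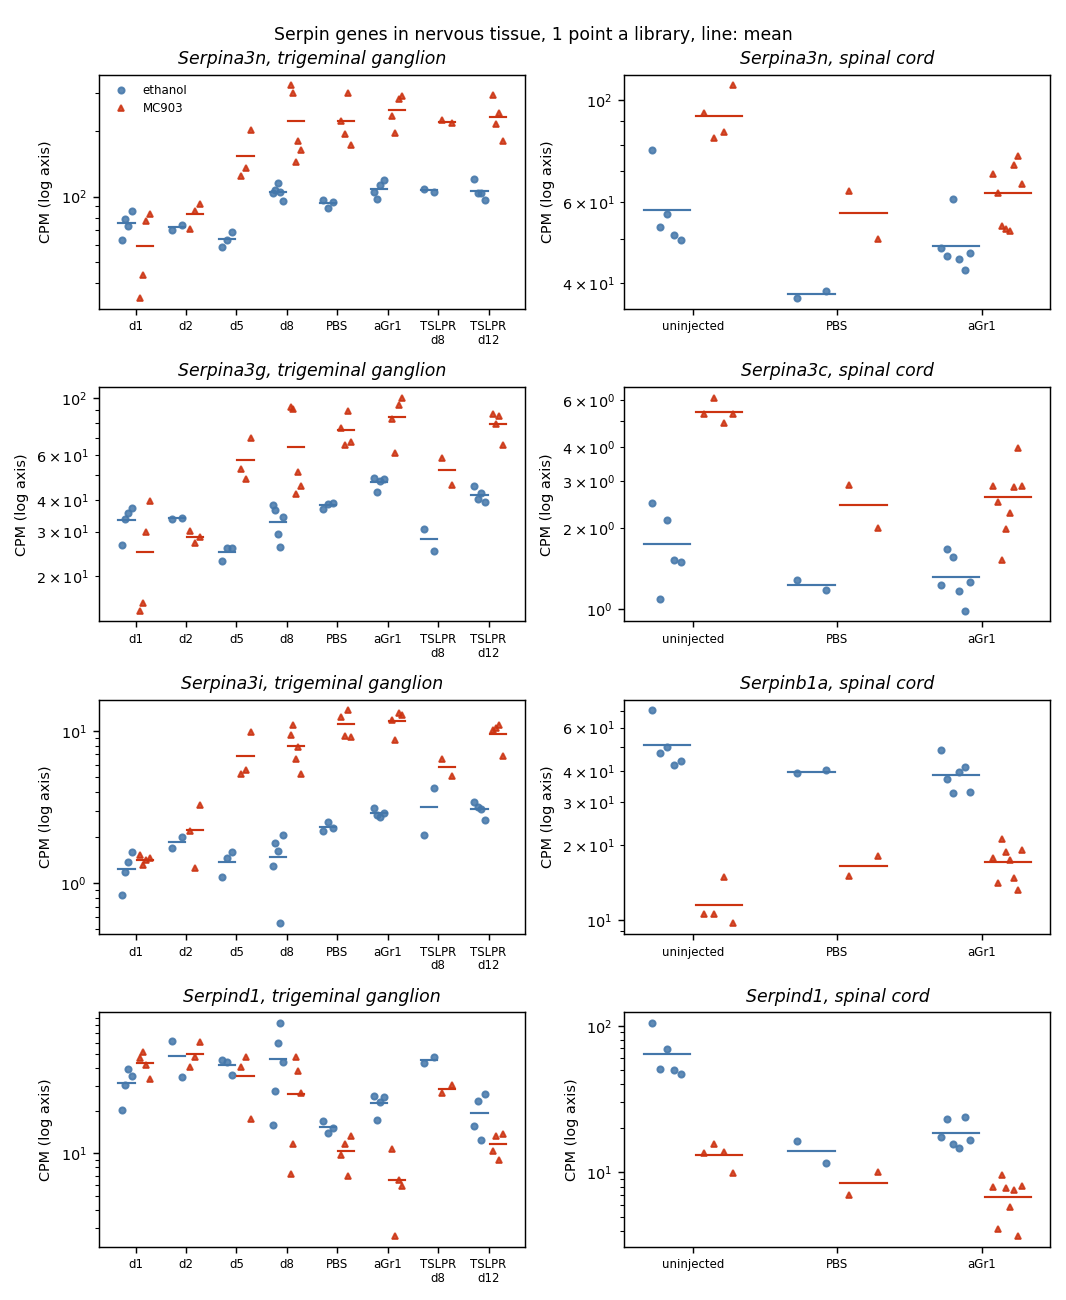
CPM on a log axis of Serpina3n, Serpina3g, Serpina3i and Serpind1 in TG and of Serpina3n, Serpina3c, Serpinb1a and Serpind1 in spinal cord, ethanol beside MC903 for each condition; points are libraries and lines are means. The 3 Serpina3 genes are higher with MC903 in each TG library from day 5 on than in the ethanol libraries of the same condition, and Serpinb1a is lower with MC903 in each spinal cord condition.

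Spinal cord gave 11 called members of 36 in uninjected wild-type mice, 6 higher and 5 lower, against 12.2% of all genes. Serpinb1a was lowest in p, with 10.6, 10.6, 14.9 and 9.68 CPM with MC903 against 70.4, 47.5, 50.2, 42.3 and 43.8 CPM (-2.17 ± 0.17, adjusted p = 2.59e-06). Serpind1 (heparin cofactor II, a thrombin inhibitor) had 13.5, 15.7, 13.8 and 9.83 CPM against 104, 50.7, 69.3, 50.1 and 47.2 CPM (-2.29 ± 0.23, adjusted p = 2.42e-05). Both were lower in every MC903 library, whereas Serpinb1a had been higher in day 8 skin. Serpinh1 (-1.44 ± 0.18, adjusted p = 0.000151), Serpinf1 (-0.43 ± 0.11, adjusted p = 0.0215) and Serping1 (-0.50 ± 0.15, adjusted p = 0.0497) were lower as well. Fibroblast marker sums moved with them, at 309 to 596 CPM with ethanol and 229 to 257 CPM with MC903 (5 of 6 markers lower), and their part was not tested.

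Serpina3n and Serpina3c were higher in the cord. Serpina3n had 93.6, 82.8, 85.4 and 108 CPM with MC903 against 77.9, 53, 56.6, 51 and 49.6 CPM (0.66 ± 0.13, adjusted p = 0.00411), and Serpina3c 5.30, 6.10, 4.93 and 5.29 CPM against 2.48, 1.09, 2.14, 1.52 and 1.5 CPM (1.61 ± 0.22, adjusted p = 0.000313). The treatments did not overlap in either gene. Serpina3m (1.45 ± 0.39), Serpinb1b (0.32 ± 0.07) and Serpini1 (0.25 ± 0.07) were called higher too, and Serpina12 passed with 0 or 1 ethanol counts per library, so that no fold is given. The count was 6 without MC903 replicate 1 or 2 and 7 without MC903 replicate 3 or ethanol replicate 2 or 3.

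With aGr1, 10 of 38 spinal cord members were called, 4 higher and 6 lower, against 11.3% of all genes. Serpinb1a had a lowest, median and highest of 13.2, 17.6 and 21.2 CPM with MC903 (n = 8) against 32.5, 38.4 and 48.6 CPM with ethanol (n = 6), with no overlap (-1.16 ± 0.10, adjusted p = 6.78e-07). Serpind1 had 3.69, 7.71 and 9.56 CPM against 14.7, 17.1 and 24 CPM (-1.42 ± 0.18, adjusted p = 2.87e-05), and Serpinh1 10.9, 14.4 and 19 CPM against 20.1, 28.7 and 40.3 CPM (-1.03 ± 0.16, adjusted p = 0.000314). All 3 were separate between treatments. Serpinb1b (0.42 ± 0.07, adjusted p = 0.000411), Serpina3c (1.0 ± 0.19, adjusted p = 0.00155) and Serpina3n (0.40 ± 0.10, adjusted p = 0.00934) were higher, and Serpinb1c (-0.75 ± 0.15, adjusted p = 0.00253) lower. Serpina3n had 51.9, 64.3 and 75.7 CPM against 42.7, 46.2 and 60.9 CPM, and its ranges overlapped.

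Serpinb1a was the 1 of 39 members whose response differed between aGr1 and uninjected mice in the cord (0.98 ± 0.20, adjusted p = 0.021, with 0.532% of all genes called). The log2 fold change was -1.16 with aGr1 and -2.17 without injection, and the ethanol levels of 32.5 to 48.6 CPM and 42.3 to 70.4 CPM overlapped. Mog, a myelin gene and 1 of 7 spinal cord markers, passed the same test (0.57, adjusted p = 0.0312), the other 6 did not, and its part was not tested. The call of Serpinb1a was lost without wild-type MC903 replicate 1 or 4. With PBS alone, 0 of 27 members passed (0% of all genes, 9 at an unadjusted p under 0.05, and Serpinb1a by DESeq2). Serpinb1a then had 15 and 18.1 CPM with MC903 against 39.2 and 40.3 CPM (-1.25 ± 0.14, adjusted p = 0.158), and against these mice the aGr1 difference was 0.08 (adjusted p = 0.958).

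Promoters are shown for Serpina3g, Serpina3i, Serpina3n and Serpina3c, each called higher in TG, spinal cord or both, as 250 bases before to 50 after the start in RefSeq (GRCm38.p6). Serpina3f and Serpina3m were also called higher in nervous tissue and are not shown. Serpina3g lies at chr12:104235897-104236196, Serpina3i at chr12:104262872-104263171 and Serpina3n at chr12:104406458-104406757 on the plus strand, and Serpina3c at chr12:104153823-104154122 on the minus strand. The capitals mark matches to the searched letters, on either strand.
Serpina3g: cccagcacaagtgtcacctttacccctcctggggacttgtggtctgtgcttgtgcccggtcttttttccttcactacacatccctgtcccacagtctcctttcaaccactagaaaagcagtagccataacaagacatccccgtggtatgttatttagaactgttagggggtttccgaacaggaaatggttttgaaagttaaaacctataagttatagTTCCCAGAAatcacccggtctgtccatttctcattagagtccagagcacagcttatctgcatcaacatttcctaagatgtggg
Serpina3i: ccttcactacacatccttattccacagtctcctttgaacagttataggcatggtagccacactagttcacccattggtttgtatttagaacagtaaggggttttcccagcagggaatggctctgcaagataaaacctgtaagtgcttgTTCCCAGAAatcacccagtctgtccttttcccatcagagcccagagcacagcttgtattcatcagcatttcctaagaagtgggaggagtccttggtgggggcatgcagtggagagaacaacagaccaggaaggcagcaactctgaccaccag
Serpina3n: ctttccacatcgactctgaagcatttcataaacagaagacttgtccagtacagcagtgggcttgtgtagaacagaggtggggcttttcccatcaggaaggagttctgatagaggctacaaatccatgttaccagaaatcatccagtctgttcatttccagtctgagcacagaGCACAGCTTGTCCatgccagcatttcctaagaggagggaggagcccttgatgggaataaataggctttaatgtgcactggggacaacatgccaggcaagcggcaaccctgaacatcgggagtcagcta
Serpina3c: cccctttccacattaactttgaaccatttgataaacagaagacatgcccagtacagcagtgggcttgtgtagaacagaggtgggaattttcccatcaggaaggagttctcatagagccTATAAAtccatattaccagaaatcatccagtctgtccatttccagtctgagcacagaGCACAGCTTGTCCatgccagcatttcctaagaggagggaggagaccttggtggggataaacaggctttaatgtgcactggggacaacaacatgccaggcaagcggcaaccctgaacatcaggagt

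The promoters of Serpina3f, Serpina3g and Serpina3i each held the palindrome TTCNNNGAA that STAT factors can bind. That of Serpina3n, called in the same TG comparisons as Serpina3g and Serpina3i, held none. Those of Serpina11, Serpinb2 and Serpinb6a, called in no TG comparison, did hold it, though Serpinb2 was tested in only 5 of the 8. Serpina1f held it as well, but had 2 counts over the 27 ethanol TG libraries and was tested in no TG comparison. The glucocorticoid-type palindrome has GNACA and TGTNC set 3 bases apart. Serpina3n and Serpina3c, the Serpina3 genes higher in both spinal cord comparisons with calls, each held it. Serpinf2, called in neither of the 2 spinal cord comparisons that tested it, held it too. Over 27025 promoters of this length the first was in 8.47% and the second in 0.463%, and of 46 member promoters 7 and 3 held them. TGANTCA, the letters of an AP-1 site, was in 7.93% of all promoters and 10 of the members', TATAAA in 14.2% and 12, among them Serpinb3a to Serpinb3d and Serpinb7, and TTGCNNAA, a C/EBP palindrome, in 10.8% and 13. The letters GGTCA repeated after a spacer of 3 bases, of the kind the vitamin D receptor binds, were in 0.0629% and in none of the members' windows, which says only that these letters are not in this window. A match describes the sequence and not a bound site, and close copies share ancestry, so that their matches are not independent.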

How the data were processed

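The authors extracted RNA, made poly(A) libraries and sequenced them as single 50-base reads. Per the labels and the study's methods the reads were aligned to mm10 with Bowtie2 and TopHat and counted per gene with HTSeq; versions, annotation release and strand setting are not given in the sources used here. The deposited values are raw counts per Ensembl gene, 1 table per library. The 5 tally lines of each table (reads on no gene were 6.15% to 21.5% of those on no gene, ambiguous or on a gene) were left out, and 18 wild-type day 12 libraries were not used. Symbols came from GENCODE M21 (45229 of 46078 identifiers). CPM were computed here with TMM scaling over all used libraries of a tissue, and each edgeR fit was scaled on its own libraries. MC903 was compared with ethanol by edgeR 4.0.16 (glmQLFit, glmQLFTest; R 4.3.3) for every gene that reached 10 counts summed over the libraries fitted, with Benjamini-Hochberg adjustment, at an adjusted p of 0.05 in skin and spinal cord and 0.1 in TG, and with a cohort term for uninjected wild-type day 8 mice. Differences between responses were interaction terms; those within a tissue share the uninjected wild-type day 8 libraries. DESeq2 1.42.0, other scalings and filters, a replicate block and leaving out each library were alternatives. Leaving out libraries was not run for the MC903 effect with aGr1 in spinal cord. The scripts were tested on simulated data.

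The named genes were, per skin comparison, up to 6 called members per direction with the smallest p, per TG or spinal cord comparison up to 4, members passing an interaction, members fixed by name (Serpina3n, Serpinb2, Serpinb3a to Serpinb3d, Serpinb5, Serpinb1a, Serpine2, Serping1, Serpinf1, Serpinh1 and Serpini1), and up to 4 proteases and other inhibitors per direction on day 8. Other names were chosen after their values were seen. The values of 1 member and the loop sequence of another are not reported here, though counts of members include them. The members and lists were chosen with earlier results of these data known. The labels do not state a pairing. Replicate numbers were taken to pair the libraries where there were at least 3 pairs and every pair's deviations correlated above 0.1. That held in 2 of 20 comparisons: TG day 5 (0.168 to 0.371) and TG TSLPR.KO day 12 (0.250 to 0.642). Skin day 2, with 2 pairs at 0.169 and 0.232, had too few pairs to be counted. No 2 replicates agreed within counting noise (193 pairs, lowest chi-square per gene 2.70).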

Additional observations from a re-analysis of the deposited data

Results flagged for a closer look

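Each called member was checked, in each group of 4 to 10 libraries of its comparison, for a library far from the others. Of 213 such sets of values 19 were flagged, where chance flags about 1 in 20 independent sets. These sets share libraries and are not independent. In uninjected wild-type skin these were the lowest day 1 MC903 value of Serpina3n (41.6 CPM), the highest day 8 ethanol values of Serpina3n (106 CPM), Serpina3j (25.6 CPM), Serpinb12 (8.66 CPM), Serpinb3c (0.994 CPM) and Serpinb3d (0.307 CPM), and the highest day 8 MC903 values of Serpina3b (14.4 CPM), Serpinb9 (10.2 CPM) and Serpinb6e (5.30 CPM). In aGr1 skin they were the highest MC903 values of Serpinb6d (12.4 CPM) and Serpinb6c (44 CPM), the lowest of Serpina9 (137 CPM) and Serpinb7 (2.28 CPM), and the highest ethanol value of Serpinb3d (0.129 CPM). In TG with PBS the lowest MC903 value of Serpina3f (2.91 CPM) was flagged. In spinal cord the highest uninjected ethanol values of Serpina3n (77.9 CPM) and Serpinb1a (70.4 CPM) were those of the same library, replicate 1, and the others were the lowest uninjected MC903 value of Serpinh1 (6.54 CPM) and the highest aGr1 ethanol value of Serpina3n (60.9 CPM).

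Differences between responses passed an interaction test for 34 pairs of a member and a contrast. The aGr1 and uninjected skin responses differed by 2.15 for Serpina9, 2.18 for Serpina3m, -2.09 for Serpinb9, -2.91 for Serpina3f, -3.84 for Serpina10, -2.14 for Serpinb6b and -1.91 for Serpinb3b on the log2 scale. The TSLPR.KO response differed by -3.25 for Serpina3g. The response in libraries labelled BLT1.KO differed by 2.76 for Serpina9, -1.88 for Serpinb7, -2.85 for Serpina3j, -1.43 for Serpina12, -1.63 for Serpinb6c and 4.50 for Serpina1e. From day 1 to day 5 the response moved by 4.67 for Serpina9, 3.48 for Serpinb12, 3.93 for Serpina11 (a value that depends on the prior count, since its ethanol counts were 0 to 2 on day 5), 2.20 for Serpinb3b, 1.87 for Serpina3n, 1.86 for Serpinb1a, 1.46 for Serpinb6c, 1.43 for Serpina3g, 1.11 for Serpina12, 0.82 for Serpinb5 and 0.76 for Serpinb8, and by -3.48 for Serpina3b, -3.35 for Serpina3j, -2.70 for Serpinb6d and -1.46 for Serpinb7. From day 5 to day 8 it moved by 3.20 for Serpina3f, 2.77 for Serpina3g, 1.75 for Serpinb9 and -2.41 for Serpina9. In spinal cord the aGr1 response of Serpinb1a differed by 0.98.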

How the results depend on the processing

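Across 447 fits no named gene's called value reversed. Of the values with 1 library left out, 2335 kept their side of the threshold, 289 fell below it and 33 passed anew; the cause of each was not tested. The counts of called members that moved by over 1.5 times are as follows. The share of all genes called in each of these fits is not given, so a changed count is not set against it. DESeq2 called 2 on skin day 2, 14 with PBS, 15 in TSLPR.KO day 8, 1 on TG days 1 and 2, 3 on TG day 5, 2 in TG TSLPR.KO day 8, 7 on TG TSLPR.KO day 12, 1 in spinal cord with PBS, and, for differences between responses, 11 (aGr1 skin), 4 (TSLPR.KO skin), 1 (TSLPR.KO TG) and 8 (day 5 to 8). Without the count filter the counts were 15 in TSLPR.KO skin day 8, 2, 3 and 5 on TG days 2, 5 and 8, 10 with PBS and 7 in TSLPR.KO day 8 TG, 1 in spinal cord with PBS, and 2 and 6 for the TSLPR.KO difference in skin and TG. With a replicate block they were 6 on skin day 2, 10 on day 8, 15 in TSLPR.KO day 8 and 5 on day 12, 1, 3, 12, 2 and 8 in TG day 2, day 5, PBS, TSLPR.KO day 8 and day 12, and 6 and 1 in spinal cord without injection and with PBS; the block moved no other count by as much. The crossed pairing of spinal cord with PBS, chosen after seeing the data, gave 7. One fit over the skin days gave 3 on day 1 and 5 on day 2. Cohort B alone gave 15 in skin and 0 in TG on day 8, TG without the cohort term 1, cohort B as reference 3 (aGr1) and 0 (TSLPR.KO), and PBS mice as reference 0 in skin, 1 in TG and 0 in spinal cord for the aGr1 difference.

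With single libraries left out, counts ranged in skin from 9 to 22 (day 1), 0 to 2 (day 2), 7 to 16 (day 5), 1 to 18 (PBS), 4 to 12 (TSLPR.KO day 8) and 8 to 16 (day 12). In TG they ranged from 0 to 6 (day 2), 1 to 4 (day 8), 4 to 12 (PBS), 0 to 5 (TSLPR.KO day 8) and 3 to 5 (day 12), and in spinal cord from 6 to 12 without injection and 1 to 12 with PBS. For the differences they ranged from 3 to 8 (aGr1 skin), 0 to 2 (TSLPR.KO skin), 4 to 10 (BLT1.KO), 0 to 5 (TSLPR.KO TG), 0 to 1 (spinal cord), 12 to 19 (day 1 to 5) and 0 to 7 (day 5 to 8). The MC903 effect with aGr1 in spinal cord was not refitted in this way. These ranges too are given without the share of all genes called in each fit. Members near 3 counts per library are limited by depth.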
